A study of Mus musculus with 11 samples.

Results

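The genes described here are 9 genes of the mouse heart that respond to mechanical load and hypertrophy: Acta1, Ankrd1, Ankrd2, Ankrd23, Csrp3, Fhl1, Fhl2, Rcan1 and Xirp2. They were taken by symbol from a deposited matrix of read counts with 55487 gene identifiers, and each matched 1 protein-coding gene. All 9 were among the 23779 genes with enough counts to be tested. Total RNA was sequenced from hearts of female C57BL/6NTac mice, an inbred strain, in 11 libraries. They fall into 3 groups, called here by their labels. ObeSeno (3 libraries) came from mice on an obesogenic diet that also received dasatinib, a tyrosine kinase inhibitor, at 5 mg/kg and quercetin, a plant flavonoid, at 50 mg/kg by gavage in 10% PEG400. Obese (4 libraries) came from mice on the same diet, gavaged with the PEG400 vehicle alone. Cntl (4 libraries) came from mice on a control diet, in which fat gave 10.4% of the energy. In the obesogenic diet fat gave 60.3% of the energy of the solid food, and sweetened condensed milk was added. Every mouse was 8 weeks old when its diet began, and diets ran for 24 weeks. The drug pair, used as a senolytic cocktail to remove senescent cells, was given on 3 days a week from week 16. The labels leave it unstated whether Cntl mice had any gavage, so diet and vehicle cannot be told apart in Obese against Cntl.

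Heart muscle cells sense stretch at the Z-disc and at the spring segments of titin, and several of these genes encode proteins that sit there and can also move to the nucleus. Pressure overload is known to raise many of them in rodent ventricles, together with a return of genes of the fetal heart. The ankyrin repeat proteins Ankrd1, Ankrd2 and Ankrd23 bind the N2A segment of titin, the LIM-domain proteins Fhl1 and Fhl2 bind its N2B segment, and Csrp3, also called muscle LIM protein, is anchored at the Z-disc. Xirp2 binds actin filaments at intercalated discs, Acta1 is the skeletal alpha-actin that the fetal and the stressed heart make beside cardiac actin, and Rcan1 binds and inhibits the phosphatase calcineurin and is itself a target of the calcineurin-NFAT pathway.

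The promoters of 5 of these genes are shown because their RNA differed between groups in the tests given further on. Each line gives the 250 bases before a RefSeq transcription start on the gene's own strand, in the build GRCm38.p6. Capitals mark matches, on either strand, to CATTCC (M-CAT, read by TEAD factors), GGAAA (the core read by NFAT), AGATAA (read by GATA factors), the CArG box (read by SRF) and the MEF2 box. The Acta1 promoter lies at chr8:123894776-123895025 on the minus strand, that of Ankrd1 at chr19:36119845-36120094 on the minus strand, and that of Csrp3 at chr7:48848052-48848301 on the minus strand. The Fhl1 promoter shown lies at chrX:56779433-56779682 on the plus strand and belongs to the first of its 2 RefSeq starts. This window too lies inside the annotated gene (chrX:56731787-56793346), not before its first base. The Rcan1 promoter shown, at chr16:92400079-92400328 on the minus strand, belongs to the second of its 2 RefSeq starts, inside the gene.
Acta1: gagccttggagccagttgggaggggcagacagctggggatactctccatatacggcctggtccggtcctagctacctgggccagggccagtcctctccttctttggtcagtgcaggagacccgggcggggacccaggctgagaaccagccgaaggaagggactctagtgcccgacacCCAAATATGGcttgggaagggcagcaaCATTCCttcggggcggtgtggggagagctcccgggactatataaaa
Ankrd1: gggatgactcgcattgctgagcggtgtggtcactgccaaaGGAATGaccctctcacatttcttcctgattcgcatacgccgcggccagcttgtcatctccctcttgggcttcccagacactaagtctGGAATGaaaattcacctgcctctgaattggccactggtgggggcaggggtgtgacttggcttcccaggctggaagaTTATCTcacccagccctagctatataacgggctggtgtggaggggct
Csrp3: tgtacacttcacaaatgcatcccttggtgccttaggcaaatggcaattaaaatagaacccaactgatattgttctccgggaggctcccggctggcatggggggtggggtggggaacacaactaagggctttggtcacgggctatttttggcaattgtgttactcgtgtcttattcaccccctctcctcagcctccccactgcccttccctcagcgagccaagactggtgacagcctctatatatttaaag
Fhl1: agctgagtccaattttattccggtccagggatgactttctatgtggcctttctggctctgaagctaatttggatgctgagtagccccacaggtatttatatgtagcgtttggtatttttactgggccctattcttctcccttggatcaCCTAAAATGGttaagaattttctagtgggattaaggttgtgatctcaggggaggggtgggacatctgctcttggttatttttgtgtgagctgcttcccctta
Rcan1: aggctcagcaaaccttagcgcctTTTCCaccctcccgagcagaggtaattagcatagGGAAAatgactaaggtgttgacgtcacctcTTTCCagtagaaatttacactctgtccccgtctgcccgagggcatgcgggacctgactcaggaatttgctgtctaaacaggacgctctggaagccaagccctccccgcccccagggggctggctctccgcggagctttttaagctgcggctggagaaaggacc

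These windows differ in what they hold. The Acta1 window has a CArG box that starts 73 bases before the transcription start and an M-CAT match that starts 46 bases before it. The Ankrd1 window has M-CAT matches 210 and 123 bases before the start and a GATA match 47 bases before it. The Fhl1 window holds a CArG box 102 bases before the start, the Rcan1 window holds GGAAA matches 227, 193 and 163 bases before it, and the Csrp3 window holds none of the searched motifs. The first RefSeq start of Rcan1, not shown, has no match, and the second starts of Csrp3 and Fhl1, not shown, have 1 GGAAA match each. The 9 genes have 14 such windows, of which 3 hold M-CAT, 4 CArG, 3 GATA, 5 GGAAA and 1 MEF2. Among all 32851 mouse promoter windows of this length, M-CAT was present in 12.6%, CArG in 1.47%, GATA in 9.99%, GGAAA in 55.6% and MEF2 in 0.508%. The match is of letters only. Gene-level counts do not separate transcripts, so which start of Csrp3, Fhl1 or Rcan1 was used was not measured.

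Library totals ran from 64.2 to 72.3 M counts in ObeSeno, from 52.7 to 67.2 M counts in Obese and from 73.1 to 103.3 M counts in Cntl. Mitochondrial genes took 17.8% to 22.4% of counts in ObeSeno, 21.4% to 24.5% in Obese and 28.2% to 32.3% in Cntl. Genes annotated as sense-intronic or still awaiting experimental evidence took 0.509% to 0.671% in ObeSeno, 0.663% to 0.811% in Obese and 0.286% to 0.590% in Cntl. This share of gene classes, called the intronic share below, did not overlap between Obese and Cntl. Reads from introns themselves were not measured. The heart label was borne out by ventricular myocyte markers, whose summed level was 26922 to 33521 CPM (a gene's count relative to the library's total, scaled between libraries by TMM) in ObeSeno, 22813 to 34021 CPM in Obese and 30775 to 42690 CPM in Cntl. The summed level of 8 atrial markers was 128 to 6032 CPM in ObeSeno, 112 to 2358 CPM in Obese and 100.4 to 181 CPM in Cntl. ObeSeno replicates 2 and 3 and Obese replicate 3 had the highest atrial marker levels. Nothing in the labels ties each library to an animal of its own, so a p-value speaks of the spread among these libraries, some of which may be technical. In RNA from heart tissue, fewer muscle cells and less RNA per muscle cell cannot be told apart.

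Of the 9 genes, 8 were well expressed and Ankrd2, known mainly from skeletal muscle, was close to the limit of detection. Per kilobase of exon, the highest mean level in ObeSeno was that of Fhl2 with 256 CPM per kb, followed by Ankrd1 (169.8), Acta1 (149), Csrp3 (145), Xirp2 (86.9), Ankrd23 (56.5), Fhl1 (28.9) and Rcan1 (10.1). In Obese the order of mean CPM per kb was Fhl2 (280.3), Csrp3 (123), Ankrd1 (89.8), Xirp2 (75.6), Acta1 (66.2), Ankrd23 (56.2), Fhl1 (24.2) and Rcan1 (9.61). In Cntl it was Ankrd1 (341), Csrp3 (296), Fhl2 (241), Xirp2 (73.2), Ankrd23 (60.0), Fhl1 (34.7), Acta1 (26.6) and Rcan1 (15.4). Many neighbours in these orders overlapped between libraries: the leading 4 genes in ObeSeno, Csrp3 down to Fhl1 in Obese, and in Cntl the leading 3, Xirp2 with Ankrd23, and Fhl1 with Acta1. Ankrd1 thus had the highest mean in Cntl but stood below Fhl2 and Csrp3 in Obese, and Acta1 stood above Csrp3 in ObeSeno but below Fhl1 in Cntl. Ankrd2 had between 0 and 18 counts in a library and 92 in all, which is 0.22, 0 and 0.22 CPM in ObeSeno, 0.03 to 0.14 CPM in Obese and 0.04 to 0.22 CPM in Cntl. The count of 0 in ObeSeno replicate 2 allows a level of up to 0.0380 CPM (3 counts, counting error only).

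**Figure D1:**
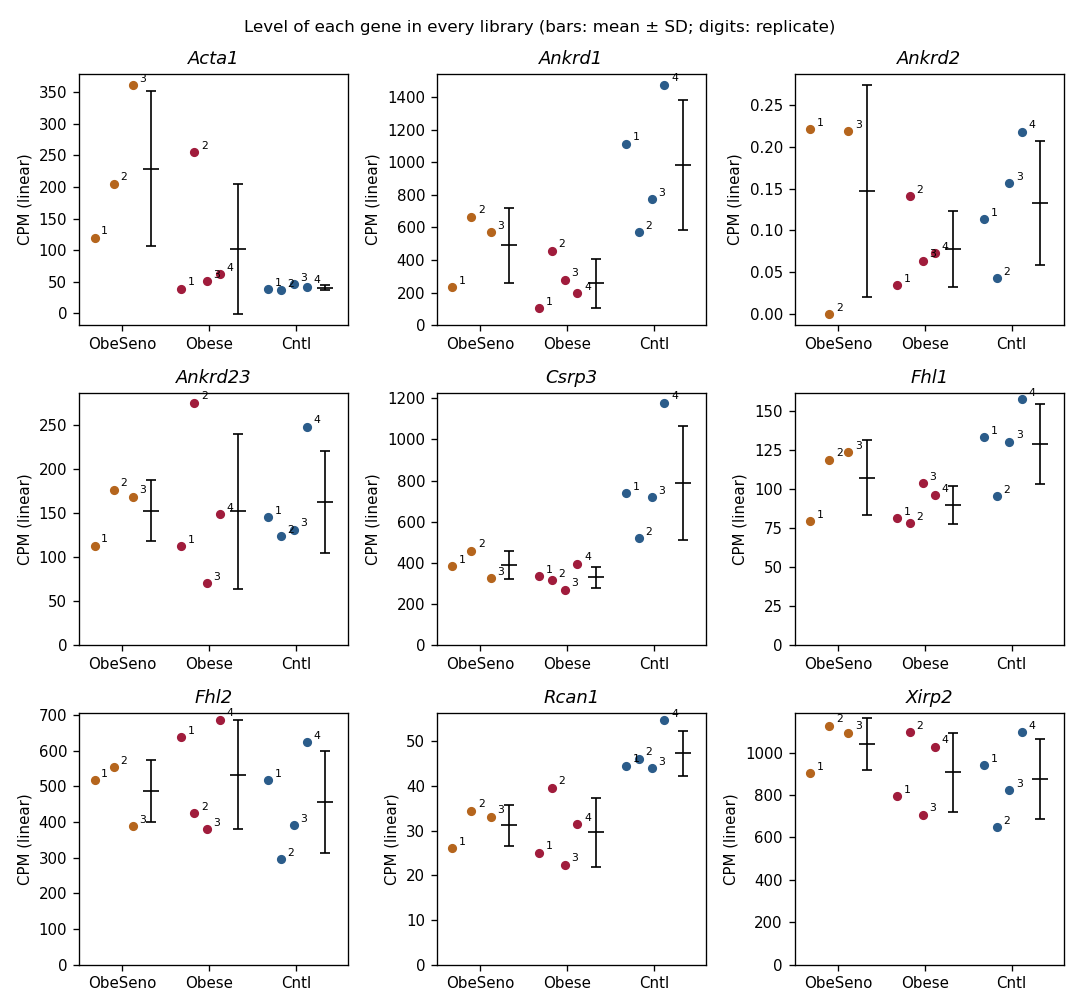
CPM (linear axis from 0) of each of the 9 genes in the 3 ObeSeno, 4 Obese and 4 Cntl libraries, with 1 point per library, digits for the replicate and bars for the mean ± SD. Csrp3, Rcan1 and Ankrd1 are lower in all 4 Obese libraries than in any Cntl library, and Acta1 is higher in all 3 ObeSeno libraries than in any Cntl library.

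Obese against Cntl hearts shows how the obesogenic diet, with vehicle gavage, related to these genes. Of the 9 genes, 4 (Ankrd1, Csrp3, Rcan1 and Fhl1) fell in Obese hearts and none rose: Ankrd1 was 3.79-fold lower, Csrp3 2.41-fold, Rcan1 1.60-fold and Fhl1 1.44-fold. The count of 4 of 9 lower stands against 15.7% of all genes tested that were lower at the same threshold and 14.4% that were higher (30.1% in either direction). The median log2 fold change was -0.52 over the 9 genes and 0.11 over all genes tested. The test throughout is edgeR's quasi-likelihood test, with Benjamini-Hochberg adjustment over all 23779 genes and a threshold of 0.05.

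Ankrd1 encodes the cardiac ankyrin repeat protein, a titin-bound cofactor that load induces in rodent ventricles. It had 104, 457, 279.7 and 196 CPM in Obese libraries 1 to 4, against 1115, 569.6, 773 and 1475 CPM in Cntl libraries 1 to 4. After TMM scaling every Obese library was below every Cntl library, but within both groups the highest library was well over the lowest. The means were 259 ± 150.4 CPM in Obese and 983 ± 398 CPM in Cntl (SD, n = 4 each), and the log2 fold change was -1.92 ± 0.49 (SE, edgeR adjusted p = 0.0148).

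Csrp3, whose product ties the Z-disc to signalling, had 334, 315, 269 and 395 CPM in Obese libraries 1 to 4, against 739, 521, 719.6 and 1179.6 CPM in Cntl libraries 1 to 4. The groups did not overlap, and the Obese libraries lay closer together than the Cntl libraries did. The means were 328 ± 52.4 CPM in Obese and 789.9 ± 278 CPM in Cntl (SD, n = 4 each), with a log2 fold change of -1.27 ± 0.22 (SE, edgeR adjusted p = 0.00149).

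Rcan1, the calcineurin inhibitor, had 25.1, 39.6, 22.4 and 31.5 CPM in Obese libraries 1 to 4, against 44.6, 46.2, 44.0 and 54.8 CPM in Cntl libraries 1 to 4. The groups did not overlap, although Obese replicate 2 came close to the lowest Cntl library. The log2 fold change was -0.68 ± 0.16 (SE, edgeR adjusted p = 0.00852). After TMM scaling, lower RNA in Obese without overlap was thus seen in 3 of the 9 genes, against 14.7% of all genes tested. Higher RNA without overlap was seen in 0 of 9, against 13.8% (28.5% in either direction). The TMM factors themselves did not overlap, with 1.02 to 1.19 in Obese and 0.733 to 0.954 in Cntl. Relative to unscaled library totals, Rcan1 and Ankrd1 overlapped between the groups, and Csrp3 did not. Rcan1 had 2521 of 53.4 M counts in Obese replicate 2 and 3150 of 90.4 M counts in Cntl replicate 1.

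Fhl1 had 81.2, 77.9, 103.8 and 96.2 CPM in Obese libraries 1 to 4, against 133, 95.3, 130.3 and 157 CPM in Cntl libraries 1 to 4. Cntl replicate 2 fell within the Obese range, so the groups overlapped. Its log2 fold change was -0.52 ± 0.17 (SE, edgeR adjusted p = 0.0357). That call was lost when any of Cntl replicates 1, 3 and 4 or Obese replicates 1 and 2 was left out (adjusted p = 0.0678 to 0.109) and with upper-quartile scaling (adjusted p = 0.0565). The calls of Ankrd1, Csrp3 and Rcan1 held in each of the 11 fits that left out 1 library.

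The other 5 genes did not pass the test. Fhl2, which binds titin's N2B segment beside metabolic enzymes, had 638, 424, 379 and 686 CPM in Obese libraries 1 to 4, against 516, 295, 391 and 623 CPM in Cntl libraries 1 to 4. Its groups overlapped, and its log2 fold change was 0.22 ± 0.24 (SE, edgeR adjusted p = 0.518). Xirp2 ranged from 707 to 1096 CPM in Obese and from 648 to 1095 CPM in Cntl, with a log2 fold change of 0.05 ± 0.18 (SE, edgeR adjusted p = 0.865). Ankrd23 ranged from 70.3 to 275 CPM in Obese and from 123 to 248 CPM in Cntl, with a log2 fold change of -0.09 ± 0.38 (SE, edgeR adjusted p = 0.872). The Ankrd23 counts carry a limit of their own: 75% of its exonic sequence, in 50-base words, also occurs in other genes, nearly all of it in the overlapping readthrough gene Gm42417. Ankrd2 had a log2 fold change of -0.74 ± 0.82 (SE, edgeR adjusted p = 0.515), which at its few counts is not informative.

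Acta1 was also not called in this comparison. It had 39.1, 255, 50.6 and 62.2 CPM in Obese libraries 1 to 4, against 38.8, 36.4, 46.3 and 42.1 CPM in Cntl libraries 1 to 4. Obese replicate 1 lay inside the Cntl range, replicates 3 and 4 slightly above it, and replicate 2 stood apart. The log2 fold change was 1.31 ± 0.60 (SE, edgeR adjusted p = 0.129), and without Obese replicate 2 it was 0.31 (adjusted p = 0.475). In that library Ankrd1, Ankrd23, Rcan1 and Xirp2 were also the highest of the Obese group.

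**Figure D2:**
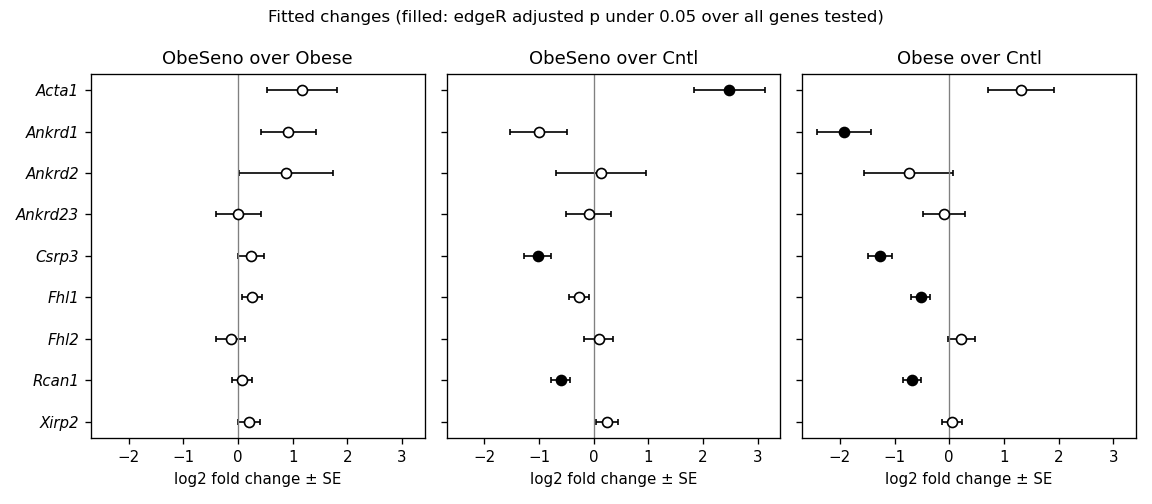
Fitted log2 fold change ± SE of the 9 genes in ObeSeno over Obese, ObeSeno over Cntl and Obese over Cntl, with filled points for an adjusted p under 0.05 over all genes tested. Filled points are Ankrd1, Csrp3, Fhl1 and Rcan1 (lower) for Obese over Cntl, Acta1 (higher) with Csrp3 and Rcan1 (lower) for ObeSeno over Cntl, and none for ObeSeno over Obese.

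Several measures moved with the Obese group beside these falls. Of 8 ventricular myocyte markers, 5 were lower in Obese than in Cntl, with a median log2 fold change of -0.52. Summed smooth muscle markers were 185 to 306 CPM in Obese and 74.6 to 120.2 CPM in Cntl (1 of 5 called, higher). Most of that sum is Smtn, with 192 ± 50.5 CPM in Obese and 53.6 ± 4.31 CPM in Cntl, while Myh11 had 38.9 ± 13.6 CPM in Obese and 33.2 ± 13.8 CPM in Cntl (SD, n = 4 each). Summed adipocyte markers were 0.394 to 8.83 CPM in Obese and 0.255 to 0.453 CPM in Cntl (4 of 5 called, higher), and summed endothelial markers were 547 to 653 CPM in Obese and 736 to 866 CPM in Cntl (2 of 5 called, lower). The part of these cell types in the falls was not tested. Mitochondrial and intronic shares of the libraries separated the groups as given above. With the intronic share as a covariate, none of the 9 genes was called, and the log2 fold changes were -0.68 for Ankrd1, -0.20 for Csrp3, -0.06 for Fhl1 and -0.33 for Rcan1. Over all genes that fit called 121 against 7166 without the covariate, and the groups do not overlap in this share, so that it and the diet cannot be told apart. With the mean of the atrial markers as a covariate, the same 4 genes were called. Without the 3 libraries with the highest atrial markers, the same 4 genes were called too, with log2 fold changes of -1.96 for Ankrd1, -1.18 for Csrp3, -0.56 for Rcan1 and -0.60 for Fhl1.

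ObeSeno against Obese hearts shows how the dasatinib and quercetin treatment related to these genes in mice on the same diet and vehicle. None of the 9 genes passed edgeR's test, and 0.0% of all genes tested did (0 of 23779). At an unadjusted p under 0.05 the test picked 0 of the 9 genes and 2425 genes in all. DESeq2 and limma voom also called 0 of the 9, while over all genes DESeq2 called 132. No gene of the 9 had groups without overlap, against 10.1% of all genes tested (4.68% higher in ObeSeno and 5.45% lower).

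The fitted values were nevertheless mostly positive, 8 of 9, with a median log2 fold change of 0.24 against -0.01 over all genes. That median was -0.10 without the 3 libraries highest in atrial markers, where 5 of the 9 values changed sign, and -0.055 with the intronic share as a covariate. The largest were those of Acta1, with 1.17 ± 0.64 (SE, edgeR adjusted p = 0.553), and of Ankrd1, with 0.92 ± 0.51 (SE, edgeR adjusted p = 0.553). Acta1 had 119.98, 205 and 361 CPM in ObeSeno libraries 1 to 3, against the 39.1 to 255 CPM in Obese, and all but Obese replicate 2 were below the lowest ObeSeno library. The log2 fold change of Acta1 was 2.18 without Obese replicate 2, 0.68 without ObeSeno replicate 3 and 0.031 without the 3 libraries highest in atrial markers. Ankrd1 had 233, 666 and 572 CPM in ObeSeno libraries 1 to 3, against 104 to 457 CPM in Obese. ObeSeno replicates 2 and 3 were above every Obese library and replicate 1 was inside their range. These same replicates 2 and 3 held the high atrial markers, and without them and Obese replicate 3 the log2 fold change of Ankrd1 was -0.10. That fit leaves ObeSeno with replicate 1 alone, whose spread is assumed to be that of the other groups.

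Among the remaining genes, log2 fold changes of ObeSeno over Obese were 0.26 ± 0.19 for Fhl1, 0.24 ± 0.23 for Csrp3 and 0.20 ± 0.20 for Xirp2 (SE, edgeR adjusted p = 0.640 to 0.742). Rcan1 at 0.07 ± 0.18, Ankrd23 at 0.01 ± 0.41 and Fhl2 at -0.13 ± 0.26 were nearer to 0 (SE, edgeR adjusted p = 0.888 to 0.996). Ankrd2, with its few counts, was at 0.88 ± 0.86 (SE, edgeR adjusted p = 0.740). With 3 libraries against 4, the standard errors were largest for Ankrd2, Acta1 and Ankrd1 and smallest for Rcan1.

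ObeSeno against Cntl hearts sets treated obese hearts beside those of the control diet. Acta1 rose 5.59-fold in ObeSeno, Csrp3 fell 2.03-fold and Rcan1 fell 1.52-fold, and the other 6 genes did not pass the test. The 3 of 9 stand against 15.8% of all genes tested that were called in either direction, 7.43% higher and 8.39% lower. The median log2 fold change was -0.09 over the 9 genes and 0.05 over all genes. This comparison and that of Obese with Cntl use the same 4 Cntl libraries, so they are not independent. All 3 calls were lost with the intronic share as a covariate (edgeR adjusted p = 0.243 to 0.397). The loss was not particular to them: over all genes that fit called 510 against 3760 without the covariate. The 3 calls were also lost without the 3 libraries highest in atrial markers, a fit that leaves 1 ObeSeno library. With the mean of the atrial markers as a covariate, Csrp3 held, Acta1 and Rcan1 were lost, and Fhl1 was called as lower (log2 fold change -0.64, adjusted p = 0.0441).

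Acta1 in ObeSeno averaged 229 ± 122 CPM (SD, n = 3), against 40.9 ± 4.29 CPM in Cntl (SD, n = 4). The lowest ObeSeno library, with 119.98 CPM, was above the highest Cntl library, with 46.3 CPM. A rise without overlap was seen in 1 of the 9 genes, against 13.7% of all genes tested. The log2 fold change was 2.48 ± 0.65 (SE, edgeR adjusted p = 0.0346). The call was lost without any 1 of the 4 Cntl libraries or of ObeSeno replicates 2 and 3 (adjusted p = 0.0648 to 0.135). Calls over all genes also moved when 1 library was left out, from 1011 to 4652 against 3760 in the main analysis. The log2 fold change of Acta1 stayed between 1.99 and 2.79 in those 11 fits. The value without the 3 libraries highest in atrial markers was 1.56.

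Csrp3 had 382, 459 and 324 CPM in ObeSeno libraries 1 to 3, below the 521 to 1179.6 CPM in Cntl. The log2 fold change was -1.02 ± 0.24 (SE, edgeR adjusted p = 0.0153), and the call was lost without ObeSeno replicate 3 (adjusted p = 0.0838). Rcan1 had 26.0, 34.5 and 33.1 CPM in ObeSeno libraries 1 to 3, below the 44.0 to 54.8 CPM in Cntl. Its log2 fold change was -0.60 ± 0.18 (SE, edgeR adjusted p = 0.0384), a call lost without any 1 of Cntl replicates 1, 3 and 4 and of the 3 ObeSeno libraries (adjusted p = 0.0547 to 0.125). Falls without overlap were seen in 2 of the 9 genes, against 14.1% of all genes tested (27.9% in either direction). These too were read after TMM scaling, with factors of 1.05 to 1.20 in ObeSeno. Relative to unscaled library totals, Csrp3 and Rcan1 both overlapped between ObeSeno and Cntl.

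Ankrd1 averaged 490.0 ± 228 CPM in ObeSeno (SD, n = 3) against 983 ± 398 CPM in Cntl (SD, n = 4), and ObeSeno replicates 2 and 3 lay inside the lower part of the Cntl range. The log2 fold change was -1.0 ± 0.52 (SE, edgeR adjusted p = 0.215). Fhl1 averaged 107 ± 24.2 CPM in ObeSeno (SD, n = 3) against 129 ± 25.6 CPM in Cntl (SD, n = 4), with a log2 fold change of -0.27 ± 0.19 (SE, edgeR adjusted p = 0.346). Neither passed the test, so the falls called for them in Obese were not called here. The difference between ObeSeno and Obese, given above, was not called for either gene. Log2 fold changes were 0.25 ± 0.20 for Xirp2, 0.09 ± 0.26 for Fhl2, -0.09 ± 0.41 for Ankrd23 and 0.14 ± 0.82 for Ankrd2 (SE, edgeR adjusted p = 0.414 to 0.924).

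**Figure D3:**
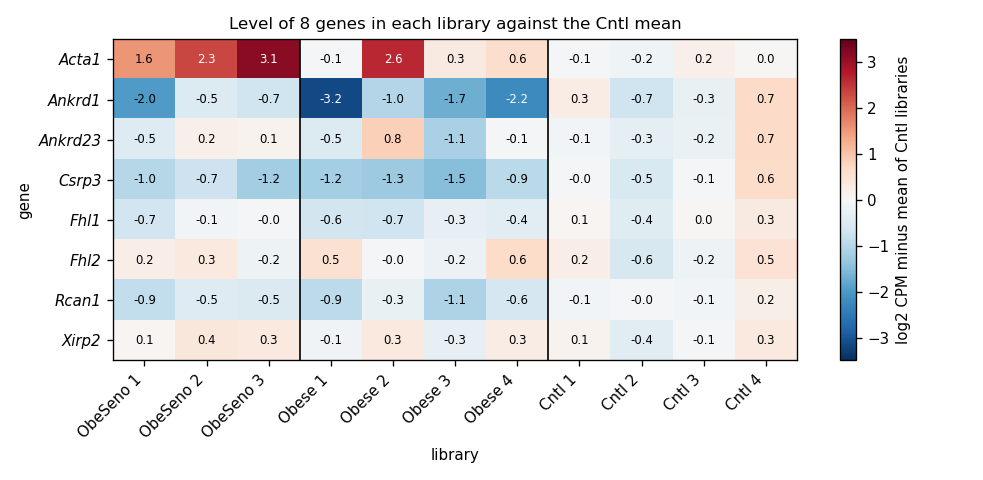
Log2 CPM minus the mean of the Cntl libraries for the 8 genes other than Ankrd2, with 1 column per library in the order ObeSeno, Obese, Cntl and red for higher. Ankrd1, Csrp3 and Rcan1 are below 0 in every Obese column (Rcan1 least in replicate 2, at -0.25), Acta1 is well above 0 in the 3 ObeSeno columns and in Obese replicate 2, and Fhl2 lies between -0.57 and 0.64 over all columns.

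The skeletal actin isoform can also be read as a share of sarcomeric actin RNA, which does not depend on library scaling. Per kilobase of exon, Acta1 made up 2.70%, 3.59% and 7.56% of Acta1 plus Actc1 (cardiac alpha-actin) in ObeSeno libraries 1 to 3. The share was 1.09%, 8.04%, 1.37% and 1.29% in Obese libraries 1 to 4, and 1.05%, 1.82%, 1.46% and 0.926% in Cntl libraries 1 to 4. All ObeSeno libraries were above all Cntl libraries, and in Obese replicate 2 alone exceeded the Cntl range. Actc1 itself averaged 5006 ± 699 CPM in ObeSeno (SD, n = 3), 3905 ± 801 CPM in Obese and 3488 ± 1123 CPM in Cntl (SD, n = 4 each) and was not called in any comparison (edgeR adjusted p = 0.164 to 0.629). Skeletal muscle markers were near 0 in every group, with a sum over 10 genes of 2.78 to 6.18 CPM in ObeSeno, 1.94 to 5.37 CPM in Obese and 2.11 to 2.72 CPM in Cntl, far below the Acta1 level. Of the 10, 2 were at 0 in every ObeSeno library, 2 in every Obese library and 1 in every Cntl library, and in ObeSeno over Cntl 2 of the 6 that could be tested were higher. Obese replicate 2, with its high Acta1 share, had 202 CPM of summed atrial markers, somewhat above the 100.4 to 181 CPM in Cntl. That library also had the lowest summed ventricular myocyte markers of all libraries (22813 CPM). Its summed adipocyte markers were the highest of the Obese group (8.83 CPM). The part of cell types in its Acta1 level was not tested.

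**Figure D4:**
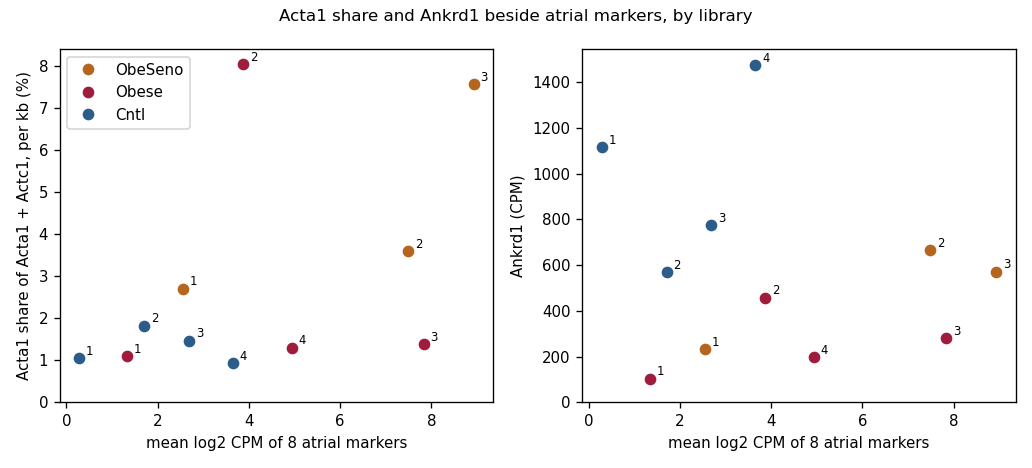
Acta1 share of Acta1 plus Actc1 per kilobase in percent (left) and Ankrd1 in CPM (right) against the mean log2 CPM of 8 atrial markers, with 1 point per library coloured by group and digits for the replicate. ObeSeno replicates 2 and 3 and Obese replicate 3 are farthest right, and Obese replicate 2, with the highest Acta1 share (8.04%), is not among them.

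Relatives of these genes were compared as shares of a pair and by their own tests. Of Xirp2 plus its relative Xirp1, per kilobase, Xirp2 held 66.6% ± 1.65 in ObeSeno (SD, n = 3), 66.2% ± 4.63 in Obese and 46.1% ± 2.11 in Cntl (SD, n = 4 each). Xirp1 averaged 253 ± 14 CPM in ObeSeno (SD, n = 3), 222 ± 29.3 CPM in Obese and 494 ± 68.0 CPM in Cntl (SD, n = 4 each). It fell in Obese over Cntl with a log2 fold change of -1.16 ± 0.13 (SE, edgeR adjusted p = 0.000213) and in ObeSeno over Cntl with -0.96 ± 0.15 (SE, edgeR adjusted p = 0.00199). Ankrd1 held 73.3% ± 6.47 of Ankrd1 plus Ankrd23 in ObeSeno (SD, n = 3), 60.3% ± 13.7 in Obese and 84.6% ± 2.69 in Cntl (SD, n = 4 each). Rcan2, the other calcineurin regulator that is abundant in this heart tissue, also fell. It averaged 238 ± 29.3 CPM in ObeSeno (SD, n = 3), 189 ± 41.9 CPM in Obese and 369 ± 57.9 CPM in Cntl (SD, n = 4 each). Its log2 fold change was -0.96 ± 0.17 in Obese over Cntl (SE, edgeR adjusted p = 0.00149) and -0.63 ± 0.18 in ObeSeno over Cntl (SE, edgeR adjusted p = 0.0344). Csrp2, a LIM relative of Csrp3, had the opposite sign, with 1.48 ± 0.36 in ObeSeno over Cntl (SE, edgeR adjusted p = 0.0205) and 0.72 ± 0.34 in Obese over Cntl (SE, edgeR adjusted p = 0.127). Csrp2 was highest in ObeSeno replicates 3 and 2 and Obese replicate 3 (14.5, 10.7 and 9.28 CPM), the libraries highest in atrial markers. ObeSeno replicate 1, with 4.81 CPM, barely exceeded the highest Cntl library, with 4.74 CPM. The part of atrial tissue in this was not tested. Of 12 tested relatives, among them Ankrd1, Ankrd2 and Ankrd23 themselves, 3 were lower and 0 higher in Obese over Cntl. Over all genes tested, 15.7% were lower and 14.4% higher. The 3 were Rcan2, Xirp1 and Ankrd1, the last of which is already counted among the 9 genes.

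Many RNAs for proteins around titin and the Z-disc, where most of these 9 genes act, were lower in Obese. Of 32 listed partners, 16 were lower and 2 higher in Obese than in Cntl, against 15.7% lower and 14.4% higher over all genes tested, with a median log2 fold change of -0.43. The fall was not particular to this list: of the 8 ventricular myocyte markers 5 were lower and 0 higher, with a median of -0.52. The M-band protein Myom2 had a log2 fold change of -1.69 ± 0.16 (SE, edgeR adjusted p = 4.69e-05), and Myoz2, a calcineurin-binding Z-disc protein, had -1.30 ± 0.14 (SE, edgeR adjusted p = 0.000129). In ObeSeno over Cntl, 8 partners were lower and 1 higher, against 8.39% lower and 7.43% higher over all genes tested, with Myoz2 at -1.14 ± 0.15 (SE, edgeR adjusted p = 0.00111) and Myom2 at -1.10 ± 0.17 (SE, edgeR adjusted p = 0.00225). In ObeSeno over Obese none was called, and Myom2 was at 0.59 ± 0.17 (SE, edgeR adjusted p = 0.381) with all ObeSeno libraries above all Obese libraries. Des, of the same list, was also higher without overlap. Over all genes tested, 4.68% were higher and 5.45% lower without overlap.

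Of 25 genes of the calcineurin, NFAT and MEF2 pathway, 7 were lower and 3 higher in Obese than in Cntl, against 15.7% lower and 14.4% higher over all genes tested. Ppp3r1, the regulatory subunit of calcineurin, had a log2 fold change of -0.73 ± 0.13 (SE, edgeR adjusted p = 0.00145), and Hdac4, a repressor of MEF2, had 1.14 ± 0.16 (SE, edgeR adjusted p = 0.00054). In ObeSeno over Cntl, 5 were lower and 3 higher (against 8.39% lower and 7.43% higher over all genes tested), led by Hdac9, another MEF2 repressor, at -0.56 ± 0.10 (SE, edgeR adjusted p = 0.00388) and Hdac4 at 0.94 ± 0.17 (SE, edgeR adjusted p = 0.00505). Of 26 genes of the SRF, MRTF, YAP and TEAD axis, 4 were lower and 3 higher in Obese than in Cntl, close to the 15.7% lower and 14.4% higher over all genes tested. The YAP-binding Amotl2 was at -0.95 ± 0.08 (SE, edgeR adjusted p = 3.64e-05), and Tead1, a factor that binds M-CAT elements, was at -0.65 ± 0.12 (SE, edgeR adjusted p = 0.00236). In ObeSeno over Cntl, 2 of these were lower and 1 higher, also close to the 8.39% lower and 7.43% higher over all genes tested, with Amotl2 at -0.63 ± 0.09 (SE, edgeR adjusted p = 0.00137) and the actin crosslinker Flna at 0.67 ± 0.17 (SE, edgeR adjusted p = 0.0238).

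Of 25 other markers of hypertrophy, 6 were lower and 1 higher in Obese than in Cntl, against 15.7% lower and 14.4% higher over all genes tested. The natriuretic peptide gene Nppb had a log2 fold change of -2.58 ± 0.84 (SE, edgeR adjusted p = 0.0467) and Myh7, the slow myosin heavy chain, had -0.61 ± 0.21 (SE, edgeR adjusted p = 0.0396), with overlapping groups in both. The other natriuretic peptide gene, Nppa, which is also one of the atrial markers, ranged from 34.3 to 2346 CPM in ObeSeno, from 12.6 to 712 CPM in Obese and from 22.9 to 54.6 CPM in Cntl. Its log2 fold change was 2.59 ± 1.41 in Obese over Cntl (SE, edgeR adjusted p = 0.196) and 5.04 ± 1.61 in ObeSeno over Cntl (SE, edgeR adjusted p = 0.0672). Myh7b, a related myosin, was the gene that rose, at 1.73 ± 0.32 (SE, edgeR adjusted p = 0.00295). In ObeSeno over Cntl, 2 were lower and 2 higher (against 8.39% lower and 7.43% higher over all genes tested), with the transcription factor Gata4 at -0.66 ± 0.17 (SE, edgeR adjusted p = 0.0208) and Myh7 at -0.02 ± 0.22 (SE, edgeR adjusted p = 0.952). In ObeSeno over Obese none of the genes in these lists was called, and the median log2 fold changes were 0.09 for titin and Z-disc partners, 0.05 for the calcineurin list, 0.01 for the SRF and YAP list and 0.26 for the other hypertrophy markers. Among the genes with the smallest p in each list there were Myom2 and the intermediate filament gene Des (0.41), Hdac9 (-0.49), Amotl2 (0.32) and the matrix protein gene Ccn2 (1.76), Myh7 (0.59) and the cytokine receptor gene Il6st (0.46), and Csrp2 (0.75) and Fhl3 (-0.50), as log2 fold changes (edgeR adjusted p = 0.263 to 0.534).

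**Figure D5:**
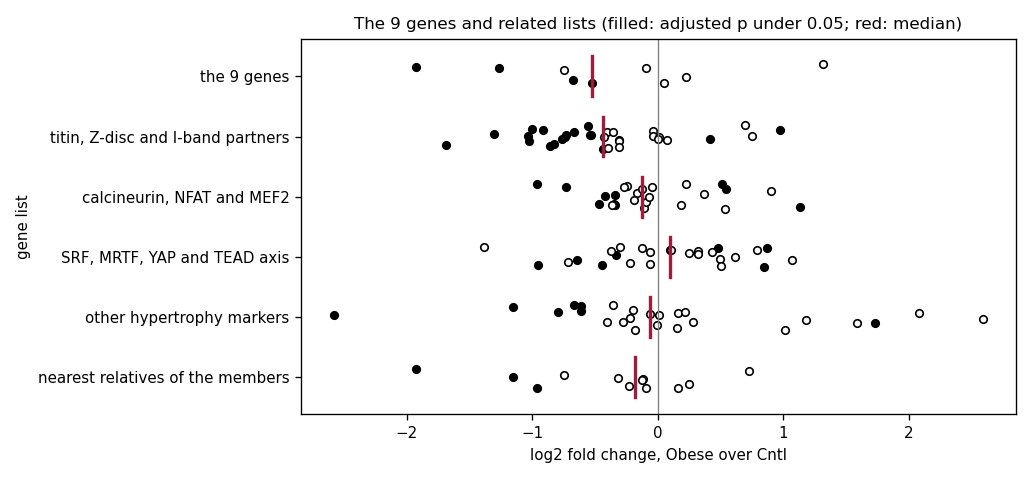
Log2 fold change of Obese over Cntl for the 9 genes and for the genes of 5 related lists, with 1 point per gene, filled where the adjusted p was under 0.05, and a red line at each median. The 9 genes (median -0.52) and the titin and Z-disc partners (median -0.43) lie mostly left of 0, and the SRF and YAP list (median 0.10) spreads on both sides.

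The 8 genes over 1 CPM varied more between libraries than the typical gene in every group, save Acta1 and Rcan1 in Cntl. The coefficient of variation of Ankrd1 was 46.5% in ObeSeno, 58.0% in Obese and 40.4% in Cntl, and that of Acta1 was 53.5% in ObeSeno, 100.8% in Obese and 10.5% in Cntl. That of Ankrd23 was 22.7% in ObeSeno, 58.3% in Obese and 35.9% in Cntl. In Cntl, Csrp3 had 35.2%, Fhl2 31.4% and Rcan1 10.6%, and the excess was small for Xirp2 in ObeSeno (11.6%). Over the 8159 genes with at least 10 CPM, the median coefficient was 10.7% in ObeSeno, 12.5% in Obese and 11.2% in Cntl. The differences followed libraries: of the 8 genes over 1 CPM, 6 were lowest in ObeSeno replicate 1, 5 were highest in Obese replicate 2, and 7 were highest in Cntl replicate 4. Cntl replicate 2 was the lowest in 7. Without scaling between libraries, Cntl replicate 4 was highest in 6 and Cntl replicate 2 lowest in 5. Cntl replicate 4 had the lowest intronic share (0.286%) and the highest mitochondrial share (32.3%) of the Cntl libraries, and Cntl replicate 2 the highest intronic share (0.590%) and the lowest mitochondrial share (28.2%). The part of library quality in these values was not tested.

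After group means were removed, the deviations of Ankrd23 and Rcan1 over the 11 libraries had a Pearson correlation of 0.96, those of Csrp3 and Fhl2 0.89, and those of Ankrd23 and Xirp2 0.87, as a description of libraries that share depth and scaling. Acta1 had 0.81 with Rcan1, 0.75 with Ankrd23 and 0.73 with Ankrd1, but -0.05 with Csrp3 and -0.33 with Fhl2, the lowest of all pairs. Over 7831 protein-coding genes with a mean of at least 10 CPM, the genes whose log2 CPM was most like that of each gene across all 11 libraries, group differences included, were Tmem43 and Sgpl1 for Ankrd1 (r = 0.98 each), Hagh (0.99) and Wdr77 (0.98) for Csrp3, and Derl1 and Tspan31 for Fhl1 (0.98 each). They were Rrp12 and Ddx21 for Rcan1 (0.94 each), Clec16a (0.96) and Dcun1d2 (0.94) for Fhl2, and Tspan9 (0.93) and Tbc1d10b (0.91) for Xirp2. Acta1 had lower values, with Clcn6 (0.90) and Itga9 (0.88), as did Ankrd23, with Wdr1 (0.88) and Myot (0.86).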

How the data were processed

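The deposited table held whole-number counts per Ensembl gene for 11 heart libraries, used as the authors made them. The submitters' processing notes name cutadapt, HISAT2, StringTie and the build GRCm38. Their versions, the annotation, the counting settings and strand use are not given there, so antisense or overlapping reads cannot be separated. GENCODE GRCm38 annotation supplied symbols, positions and exon lengths (55227 of 55487 identifiers matched). Promoter windows came from RefSeq.

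Genes were filtered with filterByExpr (minimum count 10), scaled by TMM and fitted as 3 groups over 11 libraries with edgeR 4.0.16 in R 4.3.3, with Benjamini-Hochberg adjustment over 23779 genes and a threshold of 0.05. The SE was taken from the F statistic (absolute log2 fold change over its square root). Chi-square values per degree of freedom between libraries of a group (40.2 to 164.5) showed none deposited more than once within its group. Libraries of different groups were not compared in this way.

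The 9 genes and the gene lists were chosen with earlier results of these data known. All 9 are named; from each list, the 2 genes with the smallest p per comparison, plus relatives and standard markers, could be named, and 1 gene that this rule takes is not reported here. Alternatives were other scalings and filters, DESeq2 1.42.0, limma 3.58.1 voom, only the 2 groups compared, a replicate block, covariates, thinning and leaving out libraries.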

Additional observations from a re-analysis of the deposited data

Results flagged for a closer look

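Acta1 in Obese replicate 2 stood far from the other libraries of its group: 254.8 CPM, against 62.2 CPM in the next highest Obese library (a gap of 0.893 of the group's range, past the 95% critical value of Dixon's test). It was 1 of 16 sets of 4 libraries so tested, and chance flags about 1 set in 20.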

How the results depend on the processing

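The number of the 9 genes called in Obese over Cntl was 4 in the main analysis, 3 with upper-quartile scaling, 3 to 4 when 1 library was left out and 0 with the intronic share as a covariate. In ObeSeno over Obese it was 0 under every alternative run. In ObeSeno over Cntl it was 3 in the main analysis, 0 to 3 when 1 library was left out, 2 with upper-quartile scaling and with no low-count filter, 2 with the atrial covariate (Acta1 and Rcan1 lost, Fhl1 gained), 0 with the intronic covariate, and 0 without the 3 libraries highest in atrial markers. With a replicate block the count was 4 in Obese over Cntl and 2 in ObeSeno over Cntl, where the value for Acta1 was 2.29 on the log2 scale, with an adjusted p of 0.0814. Same-numbered libraries had deviations that correlated between -0.23 and 0.40. Differently numbered libraries were not compared, so whether the numbers pair the samples was not tested. Upper-quartile scaling moved the median log2 fold change of all genes in Obese over Cntl to 0.21, against 0.11, and the calls to 4378 higher and 2926 lower, against 3429 and 3737. Over all genes, calls in ObeSeno over Cntl numbered 3760 in the main analysis, 510 with the intronic covariate, 378 without the 3 libraries and 1011 to 4652 when 1 library was left out. The cause of these shifts was not tested.

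Changes of sign were all in values that were not called. In Obese over Cntl, Ankrd23 had a log2 fold change of 0.93 with the intronic covariate, 0.025 with upper-quartile scaling and 0.14 without the 3 atrial-marked libraries. In ObeSeno over Obese, leaving out those 3 gave -0.10 for Ankrd1, -0.65 for Ankrd23, -0.091 for Fhl1, -0.29 for Rcan1 and -0.10 for Xirp2. The intronic covariate gave -0.35 for Ankrd23, -0.16 for Csrp3, -0.055 for Rcan1 and -0.077 for Xirp2. Ankrd23 was at -0.084 with the atrial covariate, -0.013 with a 1 CPM filter and -0.043 with upper-quartile scaling, Ankrd2 at -0.24 with voom and Fhl2 at 0.066 with the replicate block. In ObeSeno over Cntl, Ankrd2 was at -0.88 with voom and -0.0018 after thinning, Ankrd23 at 0.58 with the intronic covariate and 0.054 with the replicate block, and Fhl1 at 0.024 with the intronic covariate. With 1 library left out, log2 fold changes ran from -0.55 to 0.18 for Ankrd23 and from -0.10 to 0.16 for Xirp2 in Obese over Cntl, from -0.23 to 0.46 for Ankrd23, -0.26 to 0.020 for Fhl2 and -0.039 to 0.25 for Rcan1 in ObeSeno over Obese, and from -0.29 to 0.72 for Ankrd2, -0.22 to 0.19 for Ankrd23 and -0.092 to 0.27 for Fhl2 in ObeSeno over Cntl. Depth limits Ankrd2 alone among the 9 genes, since each of the others had far more counts than the filter asked for in every library.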
